A study of Caenorhabditis elegans with 2 samples.

Results

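The genes described here encode motors and kinases of the dividing spindle: the kinesins klp-7, klp-15, klp-16, klp-18, klp-19, zen-4 and bmk-1 and the kinases air-1, air-2 and plk-1. These 10 of 19973 protein-coding genes were chosen by their function and by a rule on measured peak positions, namely summits from 1000 bp upstream to 200 bp downstream of the annotated 5′ end, with their signal and rank. The peak lists were known when the genes were picked, so the counts of promoter summits below are a description and carry no test. The study mapped the DNA sites of the protein D2030.7 in Caenorhabditis elegans by chromatin immunoprecipitation with an anti-GFP antibody and sequencing (ChIP-seq). All animals were of strain RW12302, in which CRISPR placed TY1, EGFP and 3xFLAG tags on the D2030.7 gene. They were whole young adults aged 62.5 hours, synchronised by bleaching and starvation as L1 larvae. The 2 samples are biological replicates of this 1 group and of this 1 strain, and the labels give no sex. No second genotype and no control library was used here, and whole animals do not show in which tissue a site was bound.

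Kinesins are motor proteins that walk along or take apart microtubules, and a set of them builds the spindle that separates chromosomes. KLP-18 makes the spindle of the oocyte bipolar, KLP-15 and KLP-16 are closely related minus-end-directed motors, BMK-1 is the bipolar kinesin of the BimC class, KLP-19 is a chromokinesin, ZEN-4 is the motor of the centralspindlin complex of cytokinesis, and KLP-7 is a microtubule depolymerase. AIR-1 and AIR-2 are the Aurora A and Aurora B kinases, which act at centrosomes and in the chromosomal passenger complex. PLK-1 is the Polo kinase. In the adult hermaphrodite, most cell division takes place in the germ line and in embryos held in the uterus.

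6 of the kinesin genes carried a reproducible promoter peak, and klp-7 carried one inside an intron. The sequences at 5 of these summits are shown because they are the sites on which the results turn, and because the words shared by some of them are compared further on. Each is written 5′ to 3′ on the strand of the gene, from RefSeq's WBcel235 genome, and capitals mark the short words that were searched. The klp-18 window is chrIV:7039867-7039967 (plus strand), from -344 to -244 bp of the 5′ end. The klp-19 window is chrIII:13307260-13307347 (minus strand), which stops at the base before the 5′ end. The zen-4 window is chrIV:6117903-6118003 (plus strand), from -312 to -212 bp. The bmk-1 window is chrV:14457213-14457313 (minus strand), from -329 to -229 bp. The klp-7 window is chrIII:10807377-10807477 (plus strand), from 1452 to 1552 bp downstream of the 5′ end, in an intron.
klp-18: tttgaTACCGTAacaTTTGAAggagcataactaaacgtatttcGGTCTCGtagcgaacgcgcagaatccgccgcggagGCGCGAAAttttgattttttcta
klp-19: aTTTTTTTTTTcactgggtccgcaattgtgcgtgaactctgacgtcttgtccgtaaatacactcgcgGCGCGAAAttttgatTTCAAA
zen-4: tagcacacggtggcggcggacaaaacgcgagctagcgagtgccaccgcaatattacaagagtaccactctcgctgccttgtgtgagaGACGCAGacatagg
bmk-1: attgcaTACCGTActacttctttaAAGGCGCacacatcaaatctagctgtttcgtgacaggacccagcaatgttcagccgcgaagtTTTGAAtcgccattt
klp-7 intron: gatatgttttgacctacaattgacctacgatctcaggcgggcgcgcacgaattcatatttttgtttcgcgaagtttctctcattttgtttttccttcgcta

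Peak lists carry no counts of reads, and library depth is therefore unknown. Past the authors' threshold there were 2464 peaks in replicate 1, 1811 in replicate 2, 2777 in the conservative pooled list, which is the main list here, and 3082 in the other pooled list. That threshold lies at an irreproducible discovery rate of 0.01 (IDR, low where a peak keeps a like rank in the inputs that are compared), or 2 on the −log10 scale, which the files cap at 5. The 4 ranked lists keep weaker candidates too and hold from 34645 to 67021 of them. Signal values are the authors' own, and they are used here only to rank peaks within a list. The tagged gene D2030.7 had candidates but no peak past the threshold in its own promoter: the nearest, 4 bp upstream, had a −log10 IDR of 0.689 in the conservative ranked list.

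A promoter summit in the main list was found for 6 of the 10 genes, klp-15, klp-16, klp-18, klp-19, zen-4 and bmk-1. Over all protein-coding genes the share was 9.79% (1955 of 19973). The same 6 genes had a summit in the replicate 1 list, where the share of all genes was 9.08%, and in the replicate 2 list, where it was 6.55%. In the other pooled list air-2 joined them, making 7 of 10, against 10.5% of all genes. None of the kinases passed in the main list, while 6 of 7 kinesins did. Of all genes, 5.8% had a summit in each of the 4 thresholded lists, as these 6 kinesins did. The 6 summits lay 38 to 294 bp upstream of the 5′ end, far from the edges of the window. None lay inside a protein-coding gene, and the klp-16 summit lay inside an annotated microRNA gene.

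**Figure D1:**
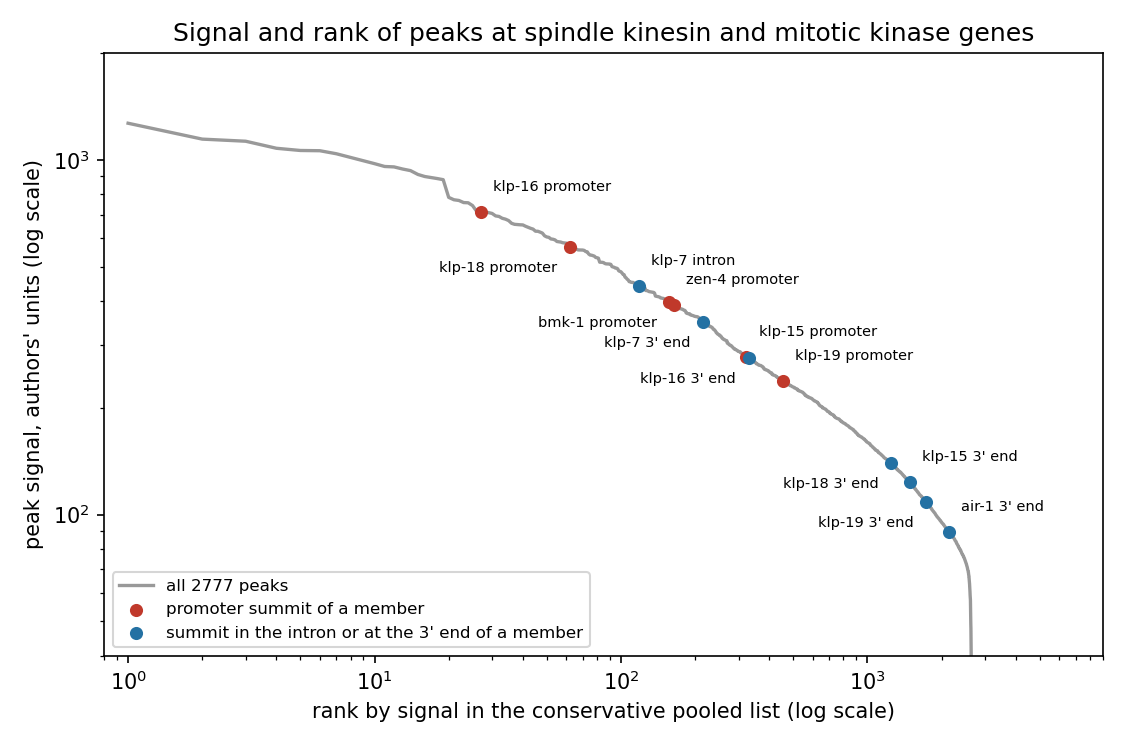
Signal of each peak of the conservative pooled list against its rank by signal, both on log scales, with the 2777 peaks as a grey line that leaves the plot at a signal of 40. Red points are promoter summits of member genes and blue points are summits in an intron or within 200 bp of a 3′ end: the promoter summits lie between rank 27 and rank 454, and the 3′ end summits reach down to rank 2143.

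The strongest promoter peak of the group belonged to klp-16 (WBGene00002226, chromosome I, 9512452 to 9514637, plus strand, coordinates here and below on ce11). Its signal was 714 in the main list (rank 27 of 2777), 406 in replicate 1 (rank 40) and 288 in replicate 2 (rank 29). It stood among the top peaks of every thresholded list. The summit, 52 bp upstream of the 5′ end, fell inside the annotated microRNA gene cel-mir-4932 (9512307 to 9512416), and 164 bp upstream of smn-1, a gene of the SMN protein of snRNP assembly that is transcribed the other way. The peak cannot be given to klp-16, cel-mir-4932 or smn-1 alone.

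Its relative klp-15 (WBGene00002225, chromosome I, 5577070 to 5579194, minus strand) had a weaker peak. The signal was 279 in the main list (rank 323), 179 in replicate 1 (rank 288) and 105 in replicate 2 (rank 401), with the summit 95 bp upstream. From the start of its divergent neighbour ctnb-1 the summit lay at -377 bp. Thus klp-16 ranked above klp-15 in both replicates. The coding sequences of the pair are 93.8% identical over 1761 bases and share 282 words of 36 bases. By contrast, the 300 bp upstream of the pair aligned with 47.2% identity and shared none, so the promoter summits lie in sequence that differs between the genes. Both peaks also reached past the 5′ end, the klp-16 peak as far as 9512568, and that part lies outside the upstream comparison.

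The klp-18 gene (WBGene00002228, chromosome IV, 7040211 to 7043694, plus strand) had the next strongest promoter peak. Its signal was 569 in the main list (rank 62), 381 in replicate 1 (rank 49) and 170 in replicate 2 (rank 144). The summit lay 294 bp upstream of klp-18 and at -337 bp from the start of cogc-2, a Golgi complex gene transcribed away from it. The summits of the 2 replicates were 37 bp apart, the widest gap among the 6 promoters.

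For bmk-1 (WBGene00000257, chromosome V, 14453302 to 14456984, minus strand) the signal was 398 in the main list (rank 157), 224 in replicate 1 (rank 194) and 163 in replicate 2 (rank 151). The replicates placed the summit within 2 bp of each other. At 279 bp upstream of bmk-1 it was nearer to coh-3, a meiotic cohesin gene transcribed the other way, whose 5′ end lay 159 bp from it. When each summit was given only to the nearest 5′ end, bmk-1 therefore lost its peak and 5 of the 10 genes had one, against 7.0% of all genes under that rule.

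The zen-4 gene (WBGene00006974, chromosome IV, 6118215 to 6121777, plus strand) had a signal of 389 in the main list (rank 164), 193 in replicate 1 (rank 250) and 188 in replicate 2 (rank 113). It was the only 1 of the 6 promoters with no divergent protein-coding neighbour. Its summit, 262 bp upstream, also lay 77 bp from the snoRNA gene M03D4.78 (6117751 to 6117876), so the peak cannot be given to zen-4 alone.

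The klp-19 gene (WBGene00002229, chromosome III, 13302717 to 13307259, minus strand) had the weakest promoter peak of the 6. Its signal was 238 in the main list (rank 454), 152 in replicate 1 (rank 411) and 84.5 in replicate 2 (rank 682). The summit positions, 38 bp upstream in the main list, differed by 1 bp between replicates. From the start of the divergent gene slc-36.1 it lay at -205 bp. Even this peak was above the upper quartile of 224 over the strongest promoter summit of all 1955 genes that had one, whose median was 144.

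All 6 main-list promoter peaks overlapped a thresholded peak of each replicate, as 52.9% of all main-list peaks did. That share covers peaks of every rank, while these 6 ranked from 27 to 454. The share among peaks of like rank was not counted. The gap between the replicates' summits ran from 1 to 37 bp in these 6 genes. Its median over all main-list peaks that overlapped both replicates was 18 bp. Their widths, from 157 to 306 bp, were below the list's median of 336 bp. Among the 454 strongest peaks, 89.9% were also narrower than that, so a narrow peak is usual at this rank. A divergent protein-coding neighbour started within 1000 bp of 5 of the 6, and of 2 of the other 4 genes, air-1 and air-2. The share of all protein-coding genes with such a neighbour was not counted, so these counts have no background.

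**Figure D2:**
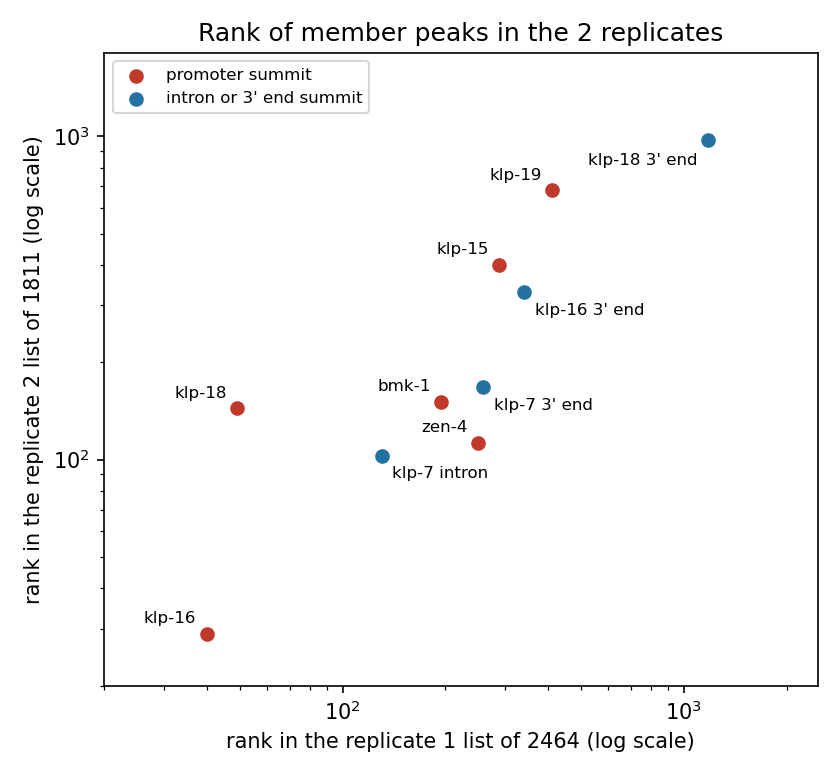
Rank of each member peak in the replicate 1 list (horizontal) and the replicate 2 list (vertical), both on log scales, for peaks past the threshold in both. Red points are promoter summits and blue points intron or 3′ end summits: klp-16 ranks 40 and 29, while klp-18 ranks 49 in replicate 1 and 144 in replicate 2.

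The depolymerase gene klp-7 (WBGene00002219, chromosome III, 10805925 to 10811001, plus strand) had no summit in its promoter window in any thresholded list. A candidate lay at -571 bp in the other pooled ranked list and at -597 bp in replicate 2's, with −log10 IDR values of 0.062 and 0.124. Inside the gene, however, a summit lay 1502 bp downstream of the 5′ end, in an intron of the longer annotated transcript. It had a signal of 441 in the main list (rank 118), 254 in replicate 1 (rank 130) and 194 in replicate 2 (rank 103). It ranked above the promoter summits of 4 of the 6 kinesins. This summit lay at -914 bp from the start of the shorter klp-7 transcript, and with every transcript start counted 7 of the 10 genes, klp-7 now among them, had a promoter summit, while the share of all genes was 10.4%. It also lay 55 bp from the piRNA gene 21ur-9572.

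None of the kinase genes had a promoter summit in the main list, and the candidates in their windows were described from the ranked lists. In the air-2 promoter (WBGene00000099, chromosome I, 5937195 to 5938881, plus strand) a peak 75 bp upstream had a signal of 68.4 and fell on different sides of the threshold in the pooled lists: −log10 IDR was 2.14 in the other pooled ranked list and 1.75 in the conservative one. In the replicates' own ranked lists it was 1.61 for replicate 1 and 0.223 for replicate 2. In the other pooled list it ranked 2769 of 3082. No other member lay near the threshold: just inside it, the lowest of the 6 kinesins in any ranked list was klp-19 with 4.15 in replicate 2's, and just outside it after air-2 came air-1. RefSeq places the start of air-2 282 bp further downstream, which puts the summit 357 bp upstream of the gene. From the start of the divergent gene B0207.6 the summit lay at -163 bp, nearer than the RefSeq start of air-2. The peak cannot be given to air-2 alone.

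The air-1 promoter (WBGene00000098, chromosome V, 8221488 to 8223582, plus strand) held 3 candidates in the conservative ranked list, the best with a −log10 IDR of 0.272 and a signal of 22.2. Replicate 1 had no candidate there, and replicate 2 had 1 with a −log10 IDR of 0.183. Outside the window, 345 bp downstream of the air-1 5′ end, the conservative ranked list held a stronger candidate, with a signal of 64.5 (rank 3805). For plk-1 (WBGene00004042, chromosome III, 8101348 to 8104069, plus strand) no ranked list held any candidate in the window. Of all protein-coding genes 53.5% had a candidate in the conservative ranked list, and 35.5% had none in any of the 4 ranked lists, so an empty window like that of plk-1 was common. The nearest main-list summit to the plk-1 start was 5346 bp downstream, beyond the gene.

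**Figure D3:**
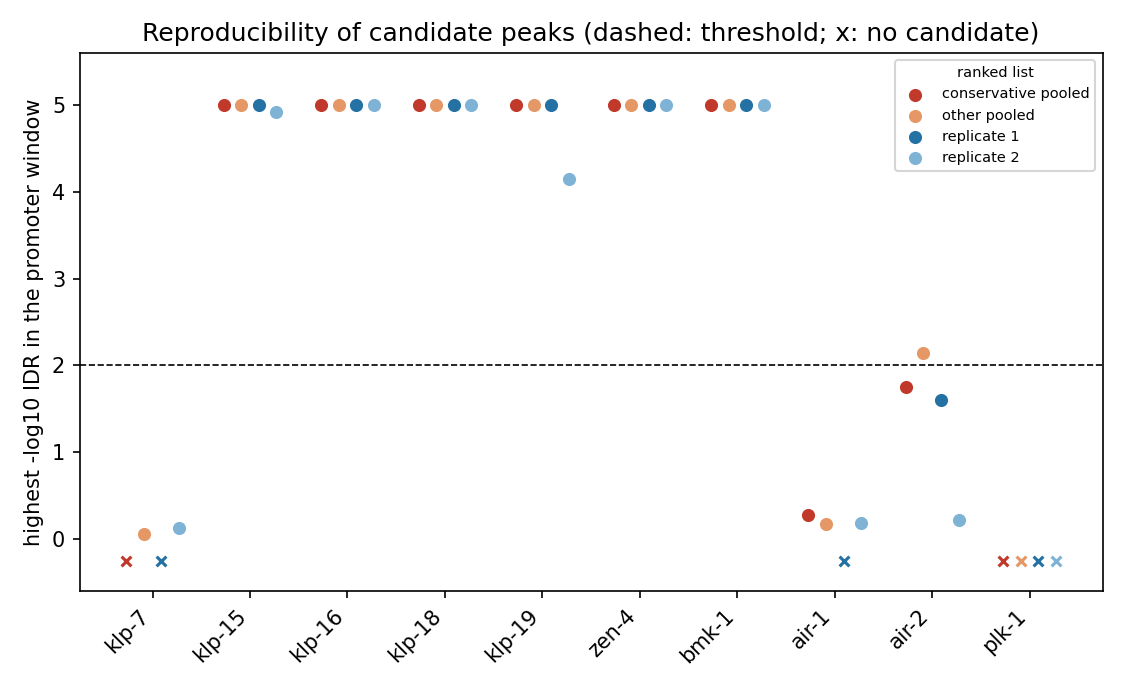
Highest −log10 IDR of any candidate in the promoter window of each gene (vertical) in the 4 ranked lists (colours), with the threshold of 2 as a dashed line and crosses where a list has no candidate. The 6 kinesins with a peak sit between 4.15 and the cap of 5 in every list, air-2 straddles the threshold, and klp-7, air-1 and plk-1 lie far below it or have no candidate.

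Beyond the promoters, a main-list summit fell within 200 bp of the annotated 3′ end in 6 of the 10 genes: klp-7, klp-15, klp-16, klp-18, klp-19 and air-1. This count was chosen after the values were seen. The share over all protein-coding genes was 2.84% (567 of 19973), and 10.7% among the 1955 genes with a promoter summit. None of these 6 summits lay in the promoter window of any protein-coding gene, a stricter condition that 1.50% of all genes met. Among the 1955 genes with a promoter summit, 5.88% met it. By list and without that condition, 6 of the 10 genes had a 3′ end summit in the other pooled list, 5 in replicate 1's and 3 in replicate 2's. Over all genes the shares in those lists were 3.19%, 2.05% and 1.91%.

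The strongest 3′ end summit was at klp-7, 44 bp past the gene, with a signal of 350 in the main list (rank 216), 189 in replicate 1 (rank 258) and 156 in replicate 2 (rank 168). At klp-16 the summit was 138 bp past the gene, with 276 in the main list (rank 330), 165 in replicate 1 (rank 341) and 115 in replicate 2 (rank 330). At klp-18 it lay before the end, at -107 bp, in the annotated 3′ untranslated region, with 140 (rank 1245), 85.7 (rank 1175) and 69.4 (rank 977). These 3 were past the threshold in both replicates.

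Weaker 3′ end summits were seen at klp-15, with a signal of 123 (rank 1487), and at air-1, with 89.3 (rank 2143). Both overlapped a thresholded peak in replicate 1 only, with signals of 65.1 and 61.8 there. The summit at klp-19 had a signal of 109 (rank 1727) and overlapped a thresholded peak in neither replicate. The peaks at the ends of klp-15, klp-18, klp-19 and air-1 were 336 bp wide, the width of 74.7% of all main-list peaks. Thus air-1, without a promoter peak, had its only main-list summit just past its 3′ end, by 91 bp. A protein-coding gene ended on the opposite strand 905 bp past klp-7 (sca-1), 321 bp past klp-15 (rmh-1), 361 bp past klp-16 (tspo-1) and 364 bp past klp-18 (tin-9.1). So 4 of these 6 genes end facing another gene, and the share of all genes that do so was not counted. The bmk-1 gene also ends facing a neighbour, 326 bp away, and had no summit there.

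**Figure D4:**
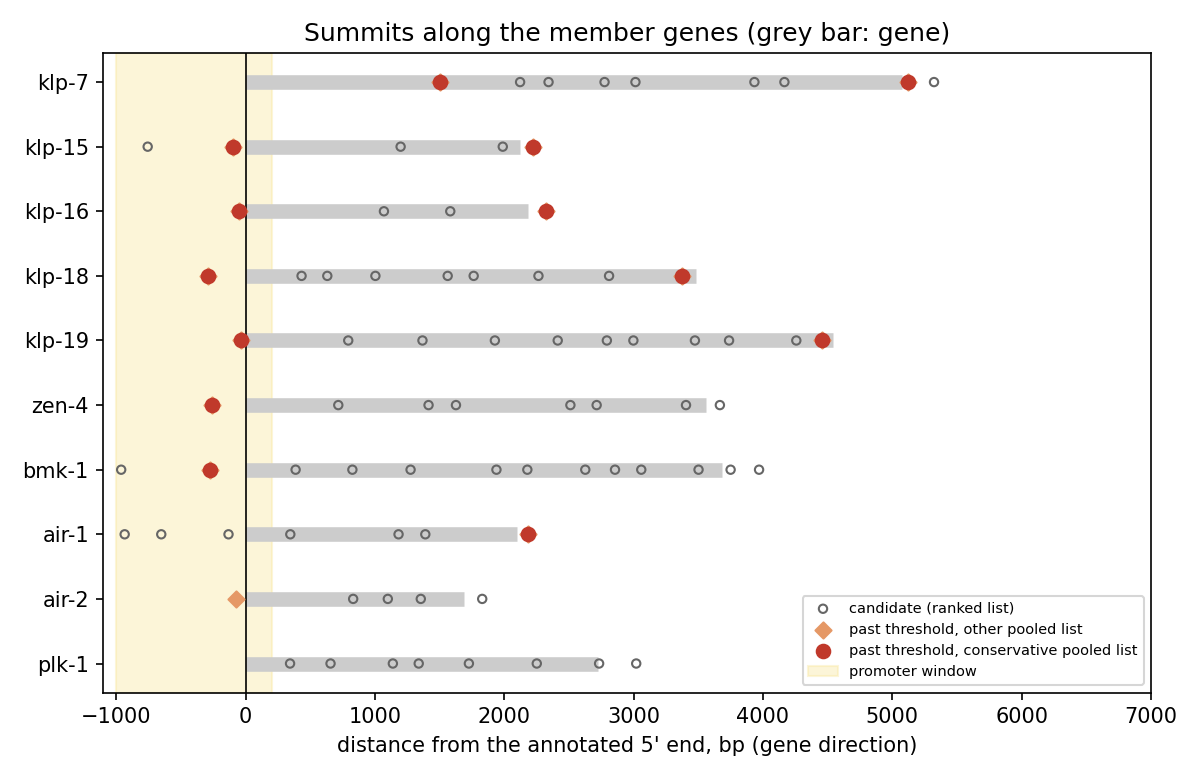
Summits along each of the 10 genes by distance from the annotated 5′ end in bp, with the gene as a grey bar and the promoter window shaded. Red circles are main-list summits, the orange diamond is the air-2 summit past the threshold in the other pooled list only, and open circles are candidates of the conservative ranked list: main-list summits stand just upstream of 6 genes and near the far end of 6 genes, with 1 in the klp-7 intron.

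The 50 bases on each side of each summit were searched on both strands for 7 words, and for 4 more that were picked after the data were seen. The 7 words, too, were chosen with earlier results of these data known. Those 4 were words of 7 bases in excess at 800 strong main-list summits over windows 300 bp to each side. These were the strongest left after dropping the members' promoter summits and all summits within 200 bp of a tRNA, snRNA or snoRNA gene. That rule did not drop summits in the intron or at the 3′ ends of members. Shares are given over all 2777 main-list windows and over windows of the same length centred at -190 bp from the 5′ end of all 19973 genes. TACCGTA, 1 of the added words, was found at klp-15, klp-16, klp-18 and bmk-1, 4 of the 6 promoters, against 7.38% of main-list windows and 1.75% of promoter windows. In the 800 strong windows from which it was picked, which are closer in rank to these peaks, its share was 13.0%. It occurred 2 times at klp-15, at 1 and 14 bp from the summit. In klp-18 and bmk-1 it can be read near the left end of the printed sequences, 45 and 44 bp upstream of the summit.

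GCGCGAAA, a word like the E2F recognition sequence known from cell cycle genes of other animals, was found at klp-18 and klp-19, against 3.49% of main-list windows and 0.345% of promoter windows. The added word GCGCGAA is contained in it, so its 2 matches are the same sites (5.51% and 0.661%, and 11.9% of the 800 strong windows). In klp-19 the word begins 21 bp upstream of the 5′ end and in klp-18 it begins 266 bp upstream. TTCCCGC, another such word, was found at klp-15 and klp-16, against 3.57% and 1.22%. The zen-4 and bmk-1 windows held neither word.

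The zen-4 window held none of the added words and 1 of the other words, CTGCGTC (4.83% of main-list and 1.65% of promoter windows), which reads as GACGCAG on the strand printed. CGAGACC was found at klp-18 alone (9.72% and 1.16%), and AAGGCGC at bmk-1 alone (9.22% and 1.15%). Their shares of the 800 strong windows were 14.6% and 13.5%. TTTGAA, the core of the CHR element of vertebrate cell cycle promoters, was found at klp-18, klp-19 and bmk-1, and it is a common word, in 21.0% of main-list and 29.7% of promoter windows. TTTTTTT was found at klp-19 alone (12.3% and 23.8%). No window held TTCGAA (8.64% and 6.58%) or GAGAGAG (3.78% and 2.40%), and the klp-7 intron window held none of the 11 words. The GC content of the 6 promoter windows ran from 38.6% at klp-15 to 56.4% at zen-4. Its median was 45.5% over main-list windows and 33.7% over promoter windows.

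Genes that work with these motors and kinases were counted in the same way. The lists were chosen with earlier results of these data known, so the intervals describe each list and are no test against all genes. Of 26 genes of centrosomes and spindle assembly, 19 had a main-list promoter summit (73.1%, exact 95% interval 52.2 to 88.4%), led by mei-2, a subunit of the microtubule-severing katanin, with a signal of 397, the gamma-tubulin ring gene mzt-1 with 368, and the spindle positioning genes lin-5 with 298 and gpr-2 with 266. In mei-2, mzt-1 and gpr-2 another gene's 5′ end was nearer to the summit. Given to the nearest 5′ end alone, 9 of the 26 had a summit, where the share of all genes was 7.0%. Of 9 genes of the chromosomal passenger complex and the midzone, 6 had one (66.7%, interval 29.9 to 92.5%), among them the anillin gene ani-1 with 229, csc-1 with 218, the midzone bundling gene spd-1 with 192 and the survivin gene bir-1 with 154. The AIR-2 partners csc-1 and bir-1 were thus past the threshold in the list in which air-2 itself was not. The ZEN-4 partner cyk-4, named after its value was seen, had 146. The spd-1 and cyk-4 summits were nearer to the 5′ ends of Y34D9A.3 and pdr-1.

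Among 15 other mitotic kinase and phosphatase genes 5 had a promoter summit (33.3%, interval 11.8 to 61.6%), the spindle checkpoint kinase gene bub-1 with 197, plk-3 with 134, the checkpoint kinase gene chk-1 with 112, wee-1.3, and, named after its value was seen, plk-2 with 93.1. Neither replicate's thresholded list had a promoter summit at chk-1 or wee-1.3, and only 1 of these lists had one at plk-2. Of the Polo-like genes, plk-2 and plk-3 thus had a main-list summit and plk-1 had none, and the plk-3 summit was nearer to F55G1.6. In the replicate 2 list 2 of the 15 had one. Of 15 tubulin genes 3 had one (20%, interval 4.33 to 48.1%), beside 9.79% of all genes. They were tbb-1 with 758, tba-2 with 256 and tba-1 with 72.7. The tbb-1 summit was nearer to rib-2, and neither replicate's list had a promoter summit at tba-1. In each of the other 3 thresholded lists 2 of the 15 tubulin genes had one.

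Of 12 other kinesin genes, most of which move cargo in neurons and cilia, only unc-116 had one, with a signal of 157. That share, 8.33% (interval 0.211 to 38.5%), is near the 9.79% of all genes. The 3′ end count was 5 of 26 for the centrosome genes, 3 of 15 for tubulins, 1 of 12 for the other kinesins and 0 for the passenger and midzone genes and for the other kinases and phosphatases. Promoters that give a peak with any tagged protein cannot be told apart here from sites of D2030.7, since no strain with another tagged protein was used.

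**Figure D5:**
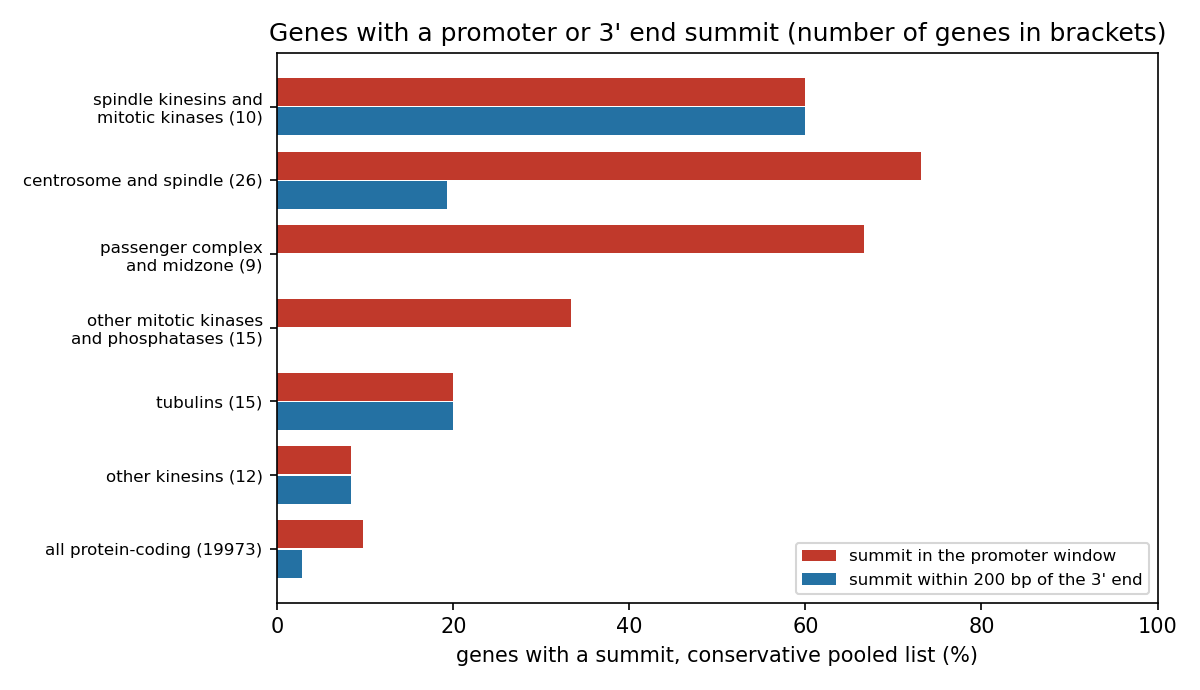
Share of genes in each list, in percent, with a conservative pooled summit in the promoter window (red bars) or within 200 bp of the 3′ end (blue bars), beside all protein-coding genes. The 10 spindle kinesin and mitotic kinase genes stand at 60% for both, the other kinesins at 8.33% for both, and all protein-coding genes at 9.79% and 2.84%.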

How the data were processed

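ChIP-seq was carried out on 2 biological replicates, with chromatin sonicated to 200 to 800 bp per the labels. The authors deposited 8 peak lists on ce11 (WBcel235), made from alignments and a control per the deposited file descriptions; neither aligner nor caller is named in the sources used here. The signal of each peak and the −log10 IDR of each ranked candidate are values as deposited by the authors. The thresholded lists held all ranked candidates past the threshold except 71 to 103 per list.

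Summits were placed against the Ensembl release 115 annotation (1-based) and counted for each protein-coding gene whose window held them. No test was made. A peak was shared between lists at an overlap of at least 1 bp. Shares of genes in lists carry exact (Clopper-Pearson) 95% intervals over genes. These intervals take genes as independent, although neighbouring genes can share a summit. The counting was tested on simulated data. Python 3.11.15, SciPy 1.17.1 and Biopython 1.88 were used.

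The members, gene lists and words were chosen with earlier results of these data known. All 10 members are named, and in each other list up to 4 genes in order of signal, with plk-2 and cyk-4 added after their values were seen. For 3 symbols of the other kinesins the annotation gave no gene, and they were left out. Alternatives were the other lists, a stricter set of the stronger 1388 peaks, a narrower window (500 bp before to 100 bp after the 5′ end), the nearest 5′ end, all transcript starts, RefSeq starts and any overlap of the peak.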

Additional observations from a re-analysis of the deposited data

How the results depend on the processing

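The count of members with a promoter summit ran from 5 (nearest 5′ end only) to 7 (other pooled list, or every transcript start) over 10 settings, and it was 6 with either replicate's list alone. With the stronger 1388 peaks it stayed 6 while the share of all genes fell to 5.63%. The count of members with a peak in both replicates was 6 in each setting. For the 3′ end count, added after seeing the data, the values without replicate 1 and without replicate 2 were 3 and 5. The centrosome and spindle list moved from 19 to 9 genes with the nearest 5′ end only. It fell from 19 to 17 with replicate 1's list alone and to 14 with replicate 2's. The other kinases and phosphatases moved from 5 to 2 with the stronger peaks. They moved to 4 with replicate 1's list alone and to 2 with replicate 2's. The causes were not tested, beyond the smaller sets of peaks or genes that these settings leave. No paired analysis was possible because there is only 1 group. Depth is unknown, so no counting error could be given.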
